A study of Mus musculus with 32 samples.

Results

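The genes described here encode the classical axon guidance ligands and their receptors. They were the protein-coding genes of the RNA-seq files whose symbols name an ephrin, an Eph receptor, a semaphorin, a plexin, a neuropilin, a Slit, a Robo, a netrin or netrin-G, an Unc5 receptor or Dcc. The rule used names alone and no measured value, and it found 70 genes among 52636 gene entries. Of these, 36 were ligands (8 ephrins, 20 semaphorins, 3 Slits and 5 netrins, of which 2 are the membrane-anchored netrin-Gs) and 34 were receptors (14 Eph receptors, 11 plexins and neuropilins, 4 Robos and 5 netrin receptors).

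Growing axons steer by these molecules. Ephrins are tethered to the cell surface and signal to Eph receptor tyrosine kinases on a neighbouring cell, and the ephrin can also signal back into its own cell. Semaphorins act through plexins, with neuropilins as the ligand-binding partners for most secreted class 3 members. Slits repel axons through Robo receptors, and netrins attract through Dcc or repel through Unc5 receptors. Outside the nervous system several of the same receptors serve contacts between neighbouring cells.

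The series compared hybrid mouse embryonic stem cells at day 0 with neurons induced from them over 10 days, with and without a deletion on the maternal chromosome of the imprinted miR-379/410 microRNA cluster, whose host transcript is Mirg. The 4 groups of rRNA-depleted RNA-seq, with 3 libraries each (replicates A to C), were Mirg(Delta/+) induced neurons, Mirg(fl/+) induced neurons, Mirg(Delta/+) stem cells and Mirg(fl/+) stem cells. They are called deletion neurons, control neurons, deletion stem cells and control stem cells below. The control cells carried the floxed allele. Stem cells were grown in serum with LIF, and neurons were made by doxycycline induction of a TetO-driven Ngn2 (Neurog2) transgene, so they are the product of 1 driving factor in culture and not neurons of a brain region. Nothing in the labels says whether replicates came from separate clones or cultures, so p-values measure the spread between these libraries, which may be technical.

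Libraries held 14904722 to 21499071 counts assigned to genes. Mirg had 2, 0 and 2 counts in deletion neurons and 455, 685 and 648 in control neurons, and 0 in each deletion stem cell library against 672 to 932 in control stem cells. The 8 neuron markers summed to between 5530 and 5630 CPM (counts scaled to library size) in deletion neurons, to between 5480 and 5660 CPM in control neurons and to at most 193 CPM in stem cells, and the 7 stem cell markers to 5.60 to 6.33 CPM in deletion neurons and 8.76 to 9.29 CPM in control neurons. Neurog2, counted from both the transgene and the endogenous gene as far as the sequence is shared, was 582 to 647 CPM in deletion neurons and 213 to 240 CPM in control neurons. The 6 neural progenitor markers summed to 22.3 to 28.1 CPM in deletion neurons (Sox1 at 0) and 11.8 to 15.3 CPM in control neurons. The 9 fibroblast markers summed to 88.1 to 99.9 CPM in deletion neurons (Dcn and Lum at 0), 71.3 to 82.0 CPM in control neurons (Lum at 0), 94.7 to 104 CPM in deletion stem cells and 56.2 to 64.5 CPM in control stem cells. The 9 glial markers summed to 44.9 to 51.5 CPM in deletion neurons and 41.5 to 44.9 CPM in control neurons. Most of that was Mbp, at 40.1 to 45.7 CPM in deletion and 35.4 to 39.7 CPM in control neurons. Glial Gfap and Sox10 were at 0 in all neuron libraries, as were the endothelial markers Cldn5 and Emcn. The sums of neural progenitor, stem cell and fibroblast markers and Neurog2 differed with genotype in neurons without overlap. So did 7 endoderm and mesoderm markers (1.72 to 2.02 CPM in deletion, 1.14 to 1.68 CPM in control neurons). In stem cells the fibroblast sums did too, as did 4 others, deletion before control. These were stem cell (1670 to 1750, 1770 to 1840 CPM), neuron (181 to 193, 165 to 173), endothelial (42.5 to 44.2, 51.3 to 55.1) and endoderm and mesoderm markers (14.9 to 15.1, 13.6 to 14.1). The part of these markers and of Neurog2 in the results below was not tested. In neurons the largest part of the fibroblast sum was Thy1, at 55.3 to 63.8 CPM in deletion and 34.8 to 46.4 CPM in control neurons. Postn was at 26.2 to 30.4 and 28.9 to 30.8 CPM. Col1a1, Col1a2 and Col3a1 were at most 0.464 CPM there. Of 4 stem cell markers tested in neurons, 2 were lower and 1 higher with the deletion. Esrrb had 2.32 to 3.19 CPM in deletion and 4.88 to 5.98 CPM in control neurons. Klf4 had 0.58 to 0.861 and 0.116 to 0.401 CPM.

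The guidance genes took a larger share of the RNA in neurons than in stem cells. They held 0.535 to 0.575% of all counts in deletion neurons, 0.470 to 0.489% in control neurons, 0.137 to 0.141% in deletion stem cells and 0.131 to 0.132% in control stem cells. TPM, the length-corrected abundance of the deposited files, are used here to compare levels between genes within a group. At 1 TPM or more stood 56 of the 70 genes in deletion neurons, 55 in control neurons, 36 in deletion stem cells and 35 in control stem cells. At 10 TPM or more stood 30 genes in deletion neurons, 29 in control neurons, 12 in deletion stem cells and 11 in control stem cells. Summed by class, plexins and neuropilins led in neurons, at 401 ± 36.8 TPM in deletion neurons and 298 ± 38.2 TPM in control neurons (SD, n = 3 libraries), ahead of semaphorins at 317 ± 23.2 TPM in deletion neurons and 238 ± 24.5 TPM in control neurons. Eph receptors came first in stem cells, at 87.4 TPM in deletion stem cells and 78.3 TPM in control stem cells, ahead of semaphorins at 72.2 TPM in deletion stem cells and 70.8 TPM in control stem cells. With the deposited posterior mean TPM the order turned in control stem cells, to 76.1 TPM for Eph receptors and 79.0 TPM for semaphorins.

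The order of the levels was led by other genes in each cell type. In neurons the semaphorin and VEGF co-receptor Nrp1 stood first, at 191 ± 20.2 TPM in deletion neurons and 151 ± 19.2 TPM in control neurons (SD, n = 3 libraries here and in the next sentences). Its signalling partner Plxna4 followed in both, at 69.7 ± 3.88 TPM in deletion neurons and 49.2 ± 6.52 TPM in control neurons, and then the netrin-G Ntng2, at 60.0 ± 7.35 TPM in deletion neurons and 47.2 ± 5.13 TPM in control neurons. In control neurons Robo2 (43.2 ± 3.77 TPM) lay within the spread of Ntng2. In stem cells Epha2 stood first, at 41.7 ± 3.0 TPM in deletion stem cells and 33.2 ± 2.43 TPM in control stem cells, well clear of Nrp2, at 16.5 ± 2.10 TPM in deletion stem cells and 17.9 ± 1.15 TPM in control stem cells. Behind Nrp2, the genes Sema4d, Sema4b, Epha4, Plxnb2 and Ntn1 lay between 12.8 and 15.8 TPM in control stem cells, each within the spread of its neighbour.

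Between groups, CPM scaled by trimmed mean of M-values (TMM) are used instead. Over genes at 1 TPM or more in both groups, the median log2 ratio of TPM in deletion over control neurons was 0.21. A TPM is thus not comparable between these groups without that shift. Summed CPM of all 70 genes were 5370 ± 133 in deletion neurons, 4770 ± 75.6 in control neurons, 1430 ± 31.6 in deletion stem cells and 1330 ± 19.0 in control stem cells. In each class except the Eph receptors the sums were higher in neurons than in stem cells of the same genotype. In control cells the ratio of neurons to stem cells was 12.5 for Slits, 6.45 for Robos, 5.27 for netrin receptors, 5.10 for plexins and neuropilins, 3.78 for semaphorins, 3.12 for ephrins and 2.04 for netrins. Eph receptors summed to 224 ± 11.2 CPM in control neurons and 335 ± 2.19 CPM in control stem cells, a ratio of 0.669. In bulk libraries such as these, more cells that express a gene and more RNA per cell cannot be told apart.

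**Figure D1:**
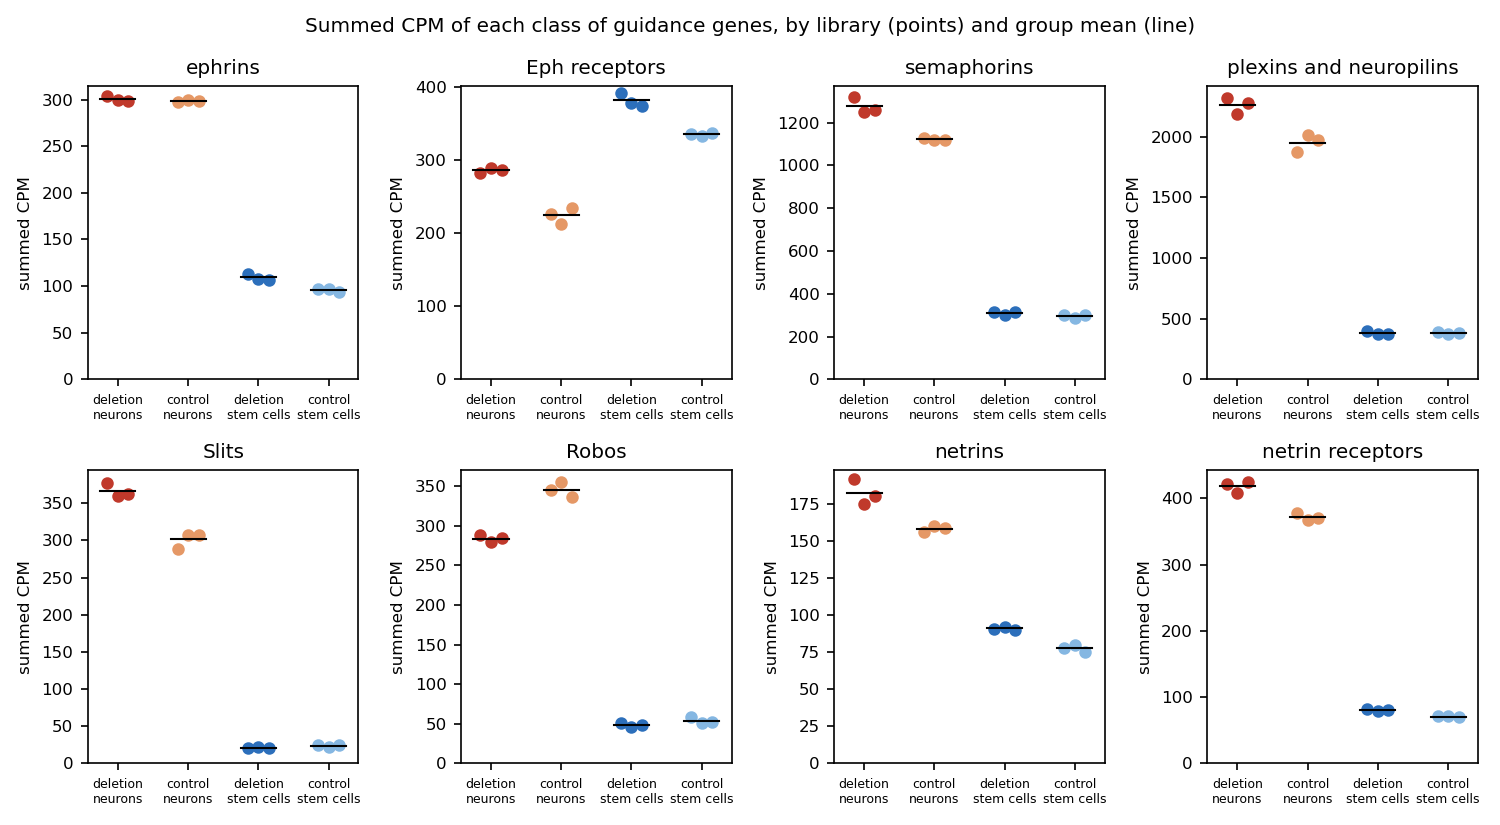
Summed CPM (y axis, linear from 0) of all members of each of the 8 classes of guidance genes, 1 point for each library and a line at the mean of the 3 libraries of a group. Eph receptors were the class with a lower sum in neurons than in stem cells, and deletion neurons lay above control neurons in 6 classes, overlapped with them in ephrins (ratio 1.01) and lay below them in Robos (ratio 0.823).

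Control neurons were compared with control stem cells to see what differentiation did to the set. Of the 70 genes, 66 had enough counts to be tested, 48 were higher in neurons and 16 lower. That is 72.7% higher, where 43.9% of all 17247 genes tested were higher, and 24.2% lower, where 45.1% of all genes were lower. The median log2 fold change was 2.27 over the guidance genes and -0.03 over all genes, and 56 of the 64 genes called changed at least 2-fold. Ligands and receptors both moved, with 27 of 34 ligands higher and 7 lower, and 21 of 32 receptors higher and 9 lower. The genes not tested, at almost no counts in either group, were Sema3g, Plxnb3, Robo3 and Ntn5. In deletion cells the same comparison gave 47 genes higher (44.6% of all genes) and 17 lower (44.9% of all genes) of 66.

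**Figure D2:**
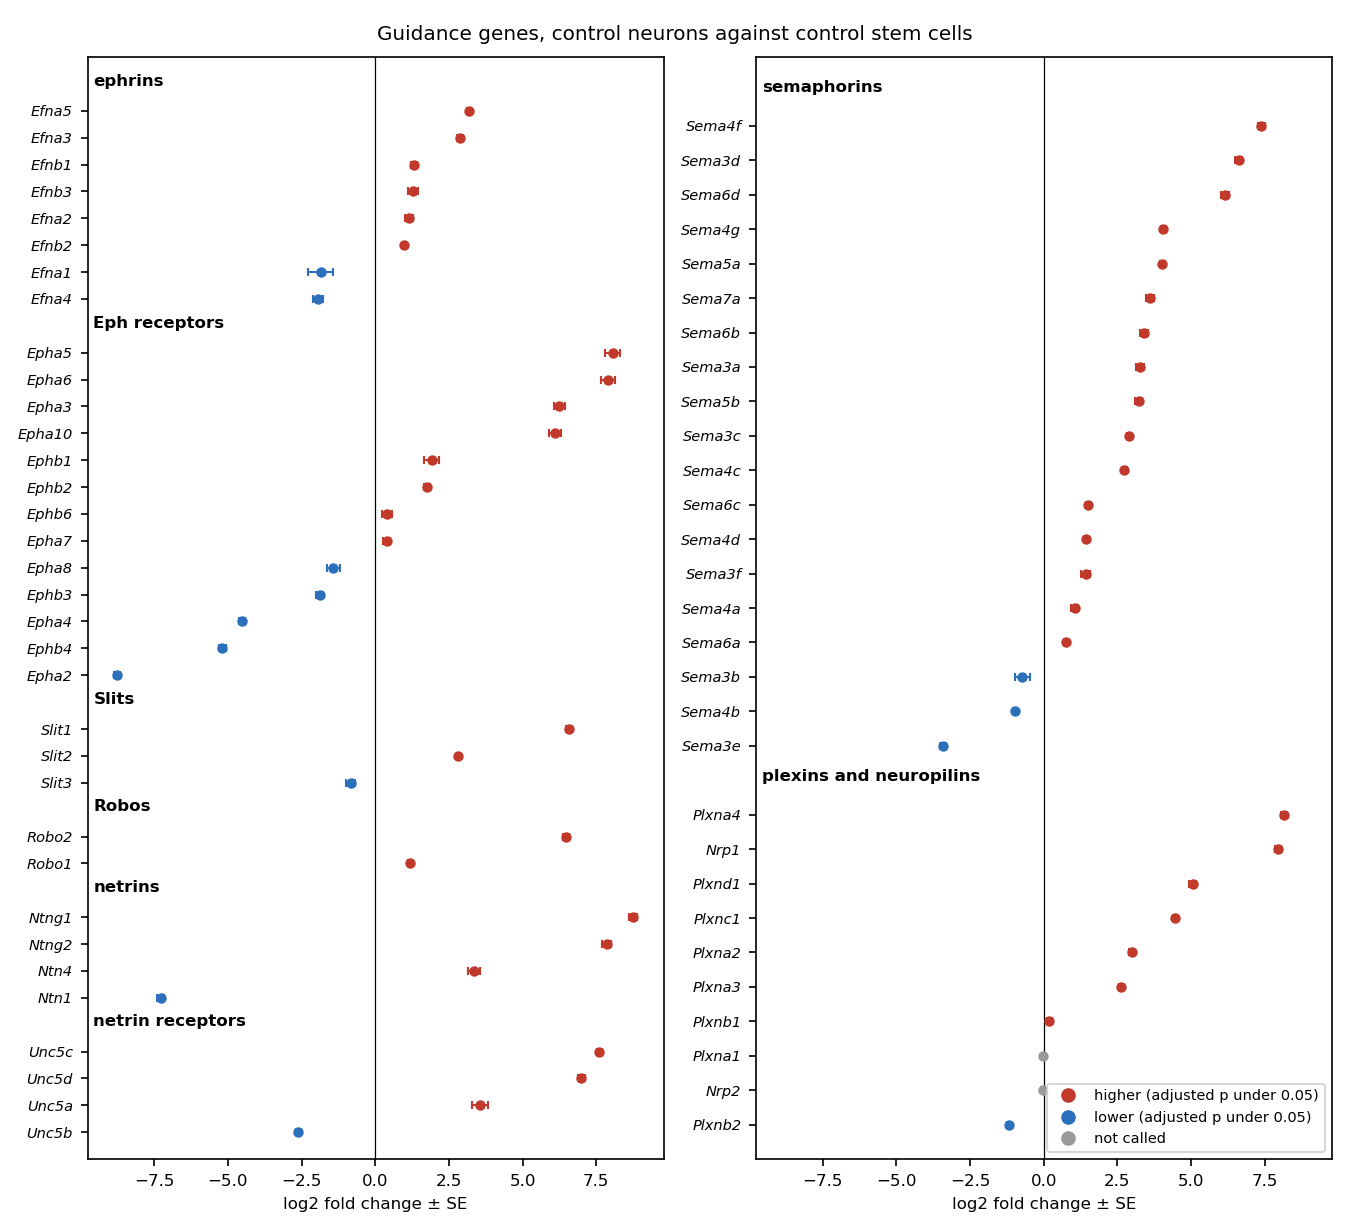
Log2 fold change (x axis) of control neurons over control stem cells with its standard error, for each tested member by class. Red and blue points passed the test (adjusted p under 0.05). Robo4, Epha1 and Dcc are not drawn because 1 group held 0 or 1 counts. Semaphorins, plexins and Unc5 receptors lie mostly to the right, while Eph receptors split to both sides.

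Eph receptors went both ways, with 8 of 14 higher (57.1%, where 43.9% of all genes were) and 6 lower (42.9%, where 45.1% of all genes were). Epha5, an ephrin-A receptor of forebrain neurons, had 80.2, 52.4 and 74.0 CPM in control neurons against 0.143, 0.241 and 0.373 CPM in control stem cells, a log2 fold change of 8.06 ± 0.25 (SE; adjusted p = 6.52e-12, edgeR quasi-likelihood test). Epha6 had 24.2, 25.4 and 32.0 CPM in neurons and 0.0951, 0.121 and 0.107 CPM in stem cells (log2 fold change 7.90 ± 0.24). Both were close to absent in stem cells, and the groups did not overlap. In the other direction, Epha2 had 0.268, 0.283 and 0.348 CPM in control neurons against 137, 132 and 135 CPM in control stem cells (log2 fold change -8.78 ± 0.10, adjusted p = 4.67e-15). Epha1, an epithelial receptor, had 1 count over the 3 control neuron libraries and 1474 over the 3 control stem cell libraries, which puts it 1370-fold lower in neurons (95% exact interval 245 to 54000, counting error only). Ephb4 (-5.20) and Epha4 (-4.52) fell as well, so the A and B subclasses were both represented on each side.

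Among the ephrins, 6 of 8 rose (75%, where 43.9% of all genes did) and 2 fell (25%, where 45.1% did), and the changes were smaller. Efna5, a ligand of the EphA receptors, had 119, 122 and 119 CPM in control neurons and 14.2, 11.8 and 13.2 CPM in control stem cells, a log2 fold change of 3.19 ± 0.07. Efna3 had 28.0, 32.2 and 31.3 CPM in neurons and 4.18, 4.28 and 4.00 CPM in stem cells (2.87 ± 0.10). Efna4 and Efna1 were the pair that fell, Efna4 with 1.61, 2.26 and 1.86 CPM in neurons and 6.66, 8.44 and 7.24 CPM in stem cells (-1.94 ± 0.18). Efna1 had 0.334, 0.141 and 0.232 CPM in neurons and 1.09, 0.724 and 0.639 CPM in stem cells (-1.85 ± 0.43), so it was low in both cell types.

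Semaphorins had 16 members that rose (84.2%, where 43.9% of all genes did), 3 that fell (15.8%, where 45.1% did) and 1 that was not tested. Sema4f, a transmembrane semaphorin found at synapses, had 76.2, 86.6 and 82.5 CPM in control neurons against 0.523, 0.543 and 0.373 CPM in control stem cells (log2 fold change 7.39 ± 0.13). The secreted Sema3d had 179, 141 and 165 CPM in neurons and 1.47, 1.93 and 1.49 CPM in stem cells (6.63 ± 0.12). Sema3e, the secreted ligand of Plxnd1, ran the other way, with 5.35, 5.56 and 4.82 CPM in neurons and 55.5, 51.0 and 60.8 CPM in stem cells (-3.41 ± 0.10). Its receptor Plxnd1 rose by 5.06 ± 0.12 on the log2 scale. Sema4b fell less, at 27.7, 32.2 and 28.2 CPM in neurons and 57.2, 57.4 and 56.9 CPM in stem cells (-0.96 ± 0.07).

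Of the plexins and neuropilins, 7 of 10 tested rose (70%, where 43.9% of all genes did) and Plxnb2 fell (10%, where 45.1% did). Plxna4, a receptor for class 3 and class 6 semaphorins, had 646, 709 and 705 CPM in control neurons and 2.04, 2.65 and 2.45 CPM in control stem cells, a log2 fold change of 8.17 ± 0.10. Antisense transcripts of Plxna4 have their own entries, and since the counting's strand setting was not given, its reads and theirs cannot be told apart. Nrp1 had 540, 591 and 579 CPM in neurons and 2.66, 1.93 and 2.13 CPM in stem cells (7.97 ± 0.10). Its paralogue Nrp2 did not pass the test, with 118, 127 and 110 CPM in neurons against 123, 117 and 118 CPM in stem cells (-0.02 ± 0.06). Plxna1 was the other member not called. Plxnb2 had 29.7, 31.5 and 35.5 CPM in neurons and 73.7, 70.3 and 74.0 CPM in stem cells (-1.18 ± 0.07).

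Slits and Robos rose with 1 exception each. Slit1, the neural Slit, had 176, 196 and 197 CPM in control neurons and 2.38, 1.63 and 1.81 CPM in control stem cells (log2 fold change 6.58 ± 0.11). Slit2 rose by 2.82 ± 0.06 and Slit3 fell by 0.83 ± 0.15 on the log2 scale. Robo2 had 241, 242 and 221 CPM in neurons against 2.85, 2.05 and 2.82 CPM in stem cells (6.49 ± 0.10), while Robo1 rose by 1.19 ± 0.07 and was already at 45.9 to 52.2 CPM in control stem cells. Robo4, the endothelial Robo, had 0 counts in every neuron library and 122 counts over the control stem cell libraries, at least 37.7-fold lower in control neurons with the floor set at 3 counts over the group. The 6 endothelial markers summed to 0.519 to 1.04 CPM in control neurons and 51.3 to 55.1 CPM in control stem cells. In control stem cells that sum was mostly Pecam1 (39.5 to 42.7 CPM) and Tek (10.5 to 11.3 CPM). There Cdh5, Tie1, Cldn5 and Emcn were each at most 1.23 CPM. The part of these markers in the Robo4 level was not tested.

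Netrins and their receptors also included genes on both sides. The netrin-Gs Ntng1 and Ntng2, GPI-anchored synaptic organisers that do not bind Dcc, had 70.4 to 73.5 CPM and 79.2 to 82.3 CPM in control neurons, and at most 0.213 and 0.543 CPM in control stem cells (log2 fold changes 8.76 ± 0.14 and 7.86 ± 0.15). The diffusible Ntn1, the canonical axon attractant, had 0.401, 0.613 and 0.406 CPM in neurons and 76.8, 78.8 and 73.8 CPM in stem cells (-7.28 ± 0.12). The repulsion receptor Unc5c had 270, 252 and 257 CPM in neurons and 1.19, 1.57 and 1.23 CPM in stem cells (7.61 ± 0.09). Unc5b, which is also used by blood vessels, had 10.8, 12.1 and 10.5 CPM in neurons and 68.6, 68.2 and 67.6 CPM in stem cells (-2.61 ± 0.08). Dcc, the attraction receptor, had 583 counts over the control neuron libraries and 1 count over the control stem cell libraries, a ratio of 629 (95% exact interval 112 to 24900, counting error only). By TPM, the netrin-receptor members in control neurons were led by Unc5c at 29.71 to 35.77 and Unc5d at 8.90 to 11.91. Dcc was at 1.52 to 2.39, Unc5b at 1.55 to 2.05 and Unc5a at 1.12 to 1.56 TPM. Neo1 (neogenin) is not a member and belongs to the partner list below. It had 232 to 252 CPM in control neurons, where Unc5c had 252 to 270 CPM.

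Since an induced bHLH factor drove the neurons, the promoters of the members were searched for CAGATG, an E-box that Neurog2 is known to prefer, on both strands, in the window from 250 bases before to 50 bases after the transcript start on which RefSeq's entry is built (GRCm38.p6). The letters were found in 6 of 76 promoters of 60 guidance genes (7.89%) and in 5635 of 32851 promoters in the table (17.2%). A match is a description of the letters and not a binding site. Of the 6 genes, the 3 with the largest changes between cell types are shown, in lower case with the E-box, read on either strand, in capitals: a netrin-G and an Eph receptor that were higher in neurons, and an Eph receptor that was lower there. The windows are chr2:29248050-29248349, chr16:60605482-60605781 and chr6:42373219-42373518, all on the minus strand.
Ntng2: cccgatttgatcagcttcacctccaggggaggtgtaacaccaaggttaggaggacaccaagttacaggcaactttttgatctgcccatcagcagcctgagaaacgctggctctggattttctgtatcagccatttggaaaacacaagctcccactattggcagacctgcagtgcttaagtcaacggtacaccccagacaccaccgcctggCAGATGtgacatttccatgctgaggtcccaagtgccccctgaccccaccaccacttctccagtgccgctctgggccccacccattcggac
Epha6: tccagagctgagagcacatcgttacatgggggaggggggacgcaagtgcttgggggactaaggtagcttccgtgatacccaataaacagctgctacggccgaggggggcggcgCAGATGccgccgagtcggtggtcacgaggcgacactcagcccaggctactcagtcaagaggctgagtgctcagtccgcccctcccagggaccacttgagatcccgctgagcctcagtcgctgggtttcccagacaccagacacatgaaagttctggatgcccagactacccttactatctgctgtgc
Epha1: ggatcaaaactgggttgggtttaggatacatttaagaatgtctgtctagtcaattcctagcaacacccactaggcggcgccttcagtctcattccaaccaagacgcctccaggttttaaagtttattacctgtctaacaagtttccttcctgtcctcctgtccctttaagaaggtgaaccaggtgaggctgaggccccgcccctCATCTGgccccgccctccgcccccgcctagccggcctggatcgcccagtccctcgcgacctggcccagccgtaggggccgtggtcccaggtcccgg
The motif began 40, 137 and 46 bases before the transcript start of the window in Ntng2, Epha6 and Epha1. That start is the outermost start of the gene in Ntng2, and lies 5380 bases inside the annotated gene in Epha6 and 46 bases inside it in Epha1.

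The deletion in neurons was the main contrast of the series. Of 62 guidance genes tested, 21 were higher in deletion neurons (33.9%, where 12.4% of all 16028 genes were higher) and 8 were lower (12.9%, where 13.3% of all genes were lower). The median log2 fold change was 0.11 over the guidance genes and 0 over all genes. Every deletion library lay above every control library in 24 guidance genes (20.3% of all genes) and below in 9 (20.4% of all genes). Changes were modest: 3 of the 29 genes called reached 2-fold and their median fold was 1.37. Ligands gave 12 higher and 5 lower of 33 tested, and receptors 9 higher and 3 lower of 29. Epha1, Epha2, Efna1, Sema3g, Plxnb3, Robo3, Robo4 and Ntn5 were too low in neurons to test. In the authors' deposited DESeq2 table, which held 64 of the genes, 20 were higher and 9 lower. Its lower genes included Ephb4 (adjusted p = 0.00415), Sema4a (0.0282), Efna4 (0.0288) and Slit3 (0.0327), while Sema7a was not called (0.122). The count of genes called lower was 5 without deletion C, 4 without control C and 5 with DESeq2.

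**Figure D3:**
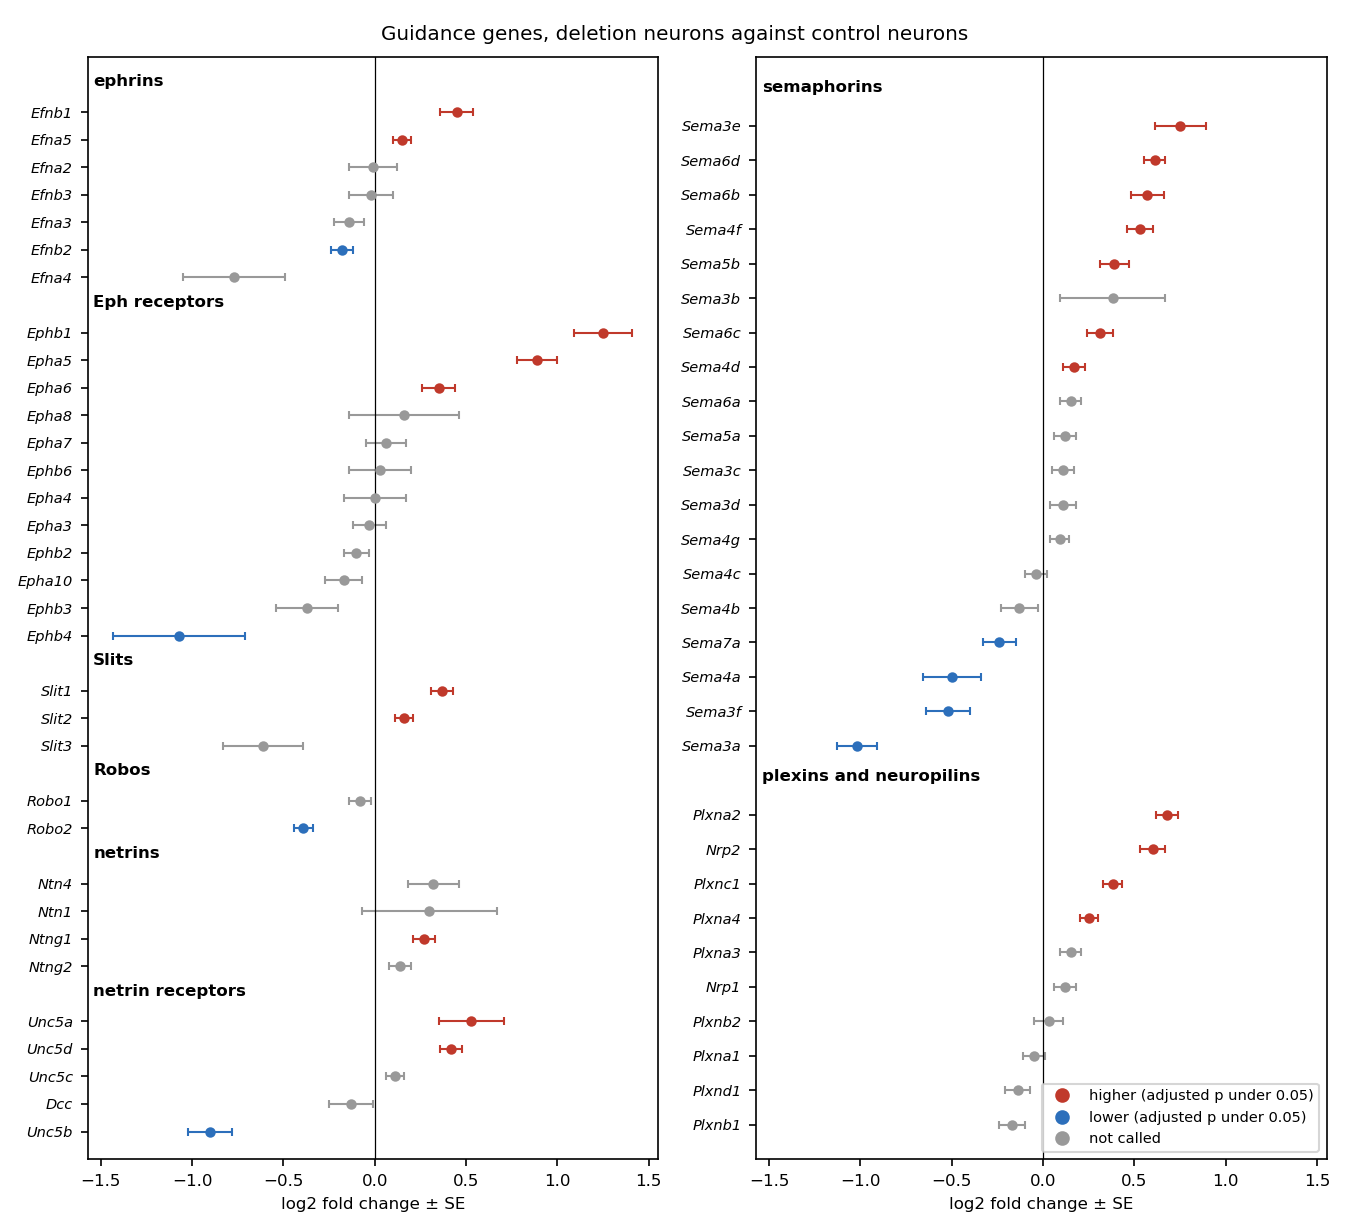
Log2 fold change (x axis) of deletion neurons over control neurons with its standard error, for each of the 62 tested members by class. Red and blue points passed the test (adjusted p under 0.05). Among semaphorins 7 lie to the right and 4 to the left as called, and no plexin or neuropilin was called lower. Over all genes 12.4% were called higher and 13.3% lower.

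Eph receptors that changed most were Ephb1, Ephb4 and Epha5. Ephb1, a B-type receptor involved in midline choice of retinal axons, had 8.42, 7.75 and 8.46 CPM in deletion neurons against 2.61, 3.77 and 3.89 CPM in control neurons, a log2 fold change of 1.25 ± 0.16 (SE; adjusted p = 3.53e-05, edgeR). Epha5 had 124, 132 and 124 CPM in deletion neurons and 80.2, 52.4 and 74.0 CPM in control neurons (0.89 ± 0.11, adjusted p = 2.76e-05). In both genes every deletion library lay above every control library. Ephb4, which neurons had nearly lost, was lower still, with 0.807, 0.527 and 0.355 CPM in deletion neurons and 0.869, 1.23 and 1.45 CPM in control neurons (-1.07 ± 0.36, adjusted p = 0.0373). This call rests on few counts and was lost without any 1 of 4 libraries (deletion B or C, control B or C), with the replicate block and with DESeq2 as run here. The authors' deposited table did call Ephb4 lower. Epha6 also rose, by 0.35 ± 0.09 (adjusted p = 0.0136), which was not called without deletion C or control B.

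Ephrins gave 2 genes higher (28.6%, where 12.4% of all genes were) and 1 lower (14.3%, where 13.3% were) of 7 tested. Their median was -0.02. Efnb1, a ligand of EphB receptors, had 22.6, 22.9 and 22.5 CPM in deletion neurons and 15.7, 18.0 and 15.8 CPM in control neurons (0.45 ± 0.09, adjusted p = 0.00111). Efnb2, a close relative, went the other way, with 103, 97.7 and 97.7 CPM in deletion neurons and 117, 108 and 114 CPM in control neurons (-0.18 ± 0.06, adjusted p = 0.0256). Efna5 had 136, 130 and 135 CPM in deletion neurons and 119, 122 and 119 CPM in control neurons (0.15 ± 0.05, adjusted p = 0.0390). The Efna5 call was lost when any 1 of the 6 libraries was left out and the Efnb2 call when 1 of 4 was (deletion B or C, control A or C), though the groups of each did not overlap. The Efna5 call was also lost with no filter and with the replicate block. Efna4 gave -0.77 ± 0.28 and did not pass (adjusted p = 0.0587), but was called lower with no filter and with all 12 libraries in 1 fit (adjusted p = 0.0326 to 0.135 over the 6 alternatives).

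Semaphorins gave 7 genes higher (36.8%, where 12.4% of all genes were) and 4 lower (21.1%, where 13.3% were) of 19 tested. Sema3a, the secreted repellent that collapses growth cones through Nrp1 and A-type plexins, had 6.71, 6.32 and 6.33 CPM in deletion neurons and 14.0, 12 and 13.6 CPM in control neurons (-1.02 ± 0.11, adjusted p = 1.1e-05). The deposited TPM of Sema3a did not show the same separation, with 3.45, 1.32 and 1.57 TPM in deletion neurons and 2.82, 2.97 and 2.76 TPM in control neurons. The effective length that the authors' RSEM run assigned to it in deletion library A was shorter than in the other neuron libraries, and 7 members had neuron effective lengths that differed more than 2-fold. The counts are the basis of the test. Sema3f, the class 3 ligand with a preference for Nrp2, was also lower (-0.52 ± 0.12, adjusted p = 0.00557), as were Sema4a (-0.50 ± 0.16) and Sema7a (-0.24 ± 0.09).

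The increases among semaphorins were mostly transmembrane. Sema6d had 107, 111 and 109 CPM in deletion neurons and 68.6, 70.4 and 75.3 CPM in control neurons (0.61 ± 0.06, adjusted p = 1.81e-06). Sema6b (0.57 ± 0.09), Sema4f (0.53 ± 0.07), Sema5b (0.39 ± 0.08), Sema6c (0.31 ± 0.07) and Sema4d (0.17 ± 0.06) were the other transmembrane genes that rose. Sema3e was the one secreted member that did, with 9.53, 9.38 and 7.65 CPM in deletion neurons and 5.35, 5.56 and 4.82 CPM in control neurons (0.75 ± 0.14, adjusted p = 0.000807). Sema3c and Sema3d, both above 100 CPM, did not pass, at 0.11 ± 0.06 and 0.11 ± 0.07. Sema4d and Sema4a were not called without any 1 of 4 libraries (deletion A or C, control A or C for both), nor was Sema7a (deletion B or C, control B or C). With DESeq2 as run here neither Sema4a nor Sema7a was called, though the authors' deposited table called Sema4a lower. Sema7a was also lost with all 12 libraries in 1 fit and with the replicate block, and Sema4d with the block.

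Plexins and neuropilins gave 4 genes higher (40%, where 12.4% of all genes were) and none lower (13.3% of all genes) of 10 tested by edgeR. Of the 6 others, 1, Plxnb1, had an unadjusted p under 0.05 with a lower value (-0.17 ± 0.07). Plxna2, a receptor for class 3 and class 6 semaphorins, had 98.1, 95.9 and 89.8 CPM in deletion neurons and 63.3, 57.6 and 56.3 CPM in control neurons (0.68 ± 0.06, adjusted p = 1.69e-06). Nrp2 had 192, 163 and 183 CPM in deletion neurons and 118, 127 and 110 CPM in control neurons (0.60 ± 0.07, adjusted p = 1.67e-05). Plxnc1, the receptor of Sema7a, had 176, 180 and 171 CPM in deletion neurons and 141, 135 and 129 CPM in control neurons (0.38 ± 0.05). These 3 receptors were higher in each deletion library than in each control library. Plxna4 rose by 0.25 ± 0.05, and Nrp1, the most abundant receptor, gave 0.12 ± 0.06 and did not pass (adjusted p = 0.142).

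Among Slits and Robos, 2 of 3 ligands rose and 1 of 2 receptors tested fell, where 12.4% of all genes were higher and 13.3% lower. Slit1 had 253, 240 and 240 CPM in deletion neurons and 176, 196 and 197 CPM in control neurons (0.37 ± 0.06, adjusted p = 0.000217). Slit2 had 123, 119 and 120 CPM in deletion neurons and 109, 108 and 107 CPM in control neurons (0.16 ± 0.05, adjusted p = 0.0323), a call lost when any 1 library but control A was left out, and also with no filter, with all 12 libraries in 1 fit and with the replicate block. Slit3 gave -0.61 ± 0.22 and did not pass (adjusted p = 0.0510), but was called lower in 4 of 6 alternatives (adjusted p = 0.0208 to 0.0876 over the 6), those with no filter, the replicate block, all 12 libraries or posterior mean counts. Robo2 had 182, 179 and 178 CPM in deletion neurons and 241, 242 and 221 CPM in control neurons (-0.39 ± 0.05, adjusted p = 8.5e-05). Robo1 gave -0.08 ± 0.06 and did not pass (adjusted p = 0.322). The group ranges of Slit1, Slit2 and Robo2 were well apart.

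Among netrins, 1 of 4 tested rose (25%) and 0 fell. Among netrin receptors, 2 of 5 rose (40%) and 1 fell (20%). Over all genes 12.4% were higher and 13.3% lower, so with so few members these shares are imprecise. Ntng1 had 91.1, 86.7 and 83.9 CPM in deletion neurons and 70.4, 72.7 and 73.5 CPM in control neurons (0.27 ± 0.06, adjusted p = 0.00204). Unc5d had 117, 117 and 109 CPM in deletion neurons and 81.5, 87.5 and 87.2 CPM in control neurons (0.42 ± 0.06, adjusted p = 6.41e-05). Unc5b had 5.55, 6.01 and 6.39 CPM in deletion neurons and 10.8, 12.1 and 10.5 CPM in control neurons (-0.90 ± 0.12, adjusted p = 6.4e-05). Unc5a had 9.23, 6.53 and 7.25 CPM in deletion neurons and 6.96, 4.53 and 4.64 CPM in control neurons (0.53 ± 0.18, adjusted p = 0.0394), with overlapping groups and a call lost without any 1 of 4 libraries (deletion A or C, control B or C). Unc5a overlaps another protein-coding gene in the annotation, as do Epha5, Epha1, Plxna1, Sema3b and Ntn5. Unc5c (0.11 ± 0.05), Ntng2 (0.14 ± 0.06) and Dcc (-0.13 ± 0.12) did not pass.

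**Figure D4:**
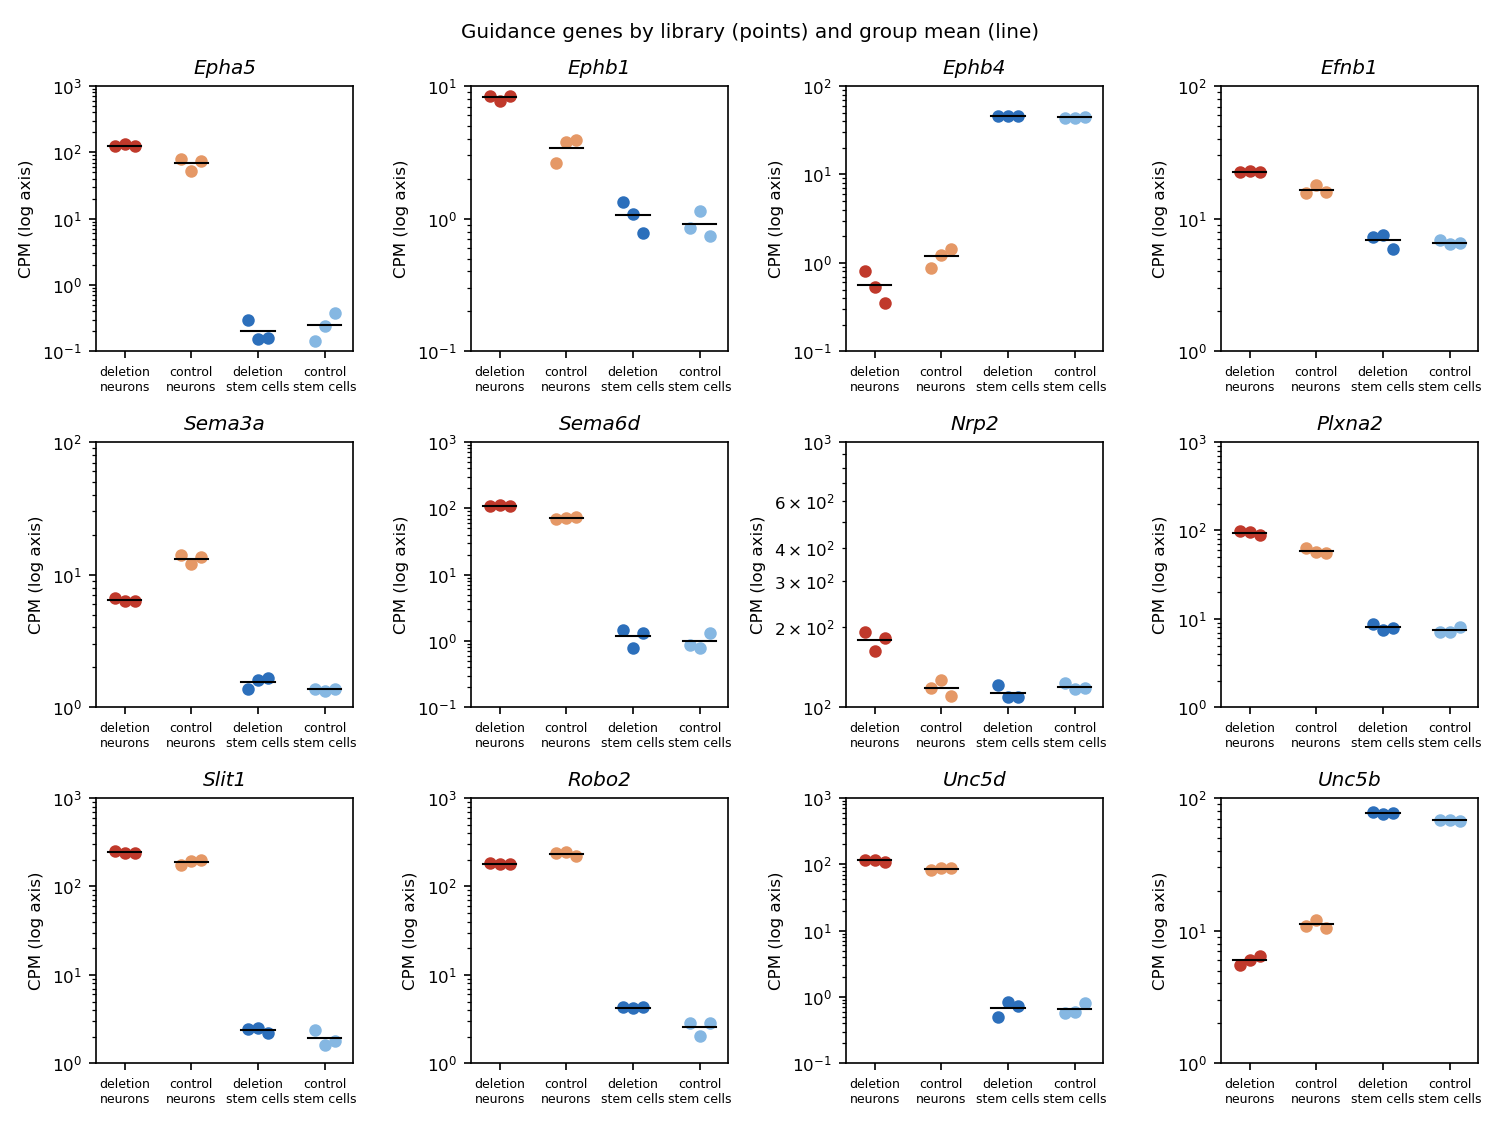
CPM with TMM library sizes (y axis, log scale with its own range in each panel) of 12 guidance genes, 1 point for each library and a line at the mean of the 3 libraries of a group. Epha5, Ephb1, Efnb1, Sema6d, Nrp2, Plxna2, Slit1 and Unc5d lie higher in deletion than in control neurons, and Ephb4, Sema3a, Robo2 and Unc5b lower, while most stem cell groups lie close together.

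In stem cells the deletion moved few guidance genes, and their number depended on whether libraries were paired by replicate letter. Of 59 tested without pairing, 3 were higher (5.08%, where 1.37% of all 16185 genes were higher). By edgeR 0 were lower (0.544% of all genes). DESeq2 called 3 higher and 1 lower. Epha2, the receptor at the top of the stem cell order, had 176, 175 and 168 CPM in deletion stem cells and 137, 132 and 135 CPM in control stem cells, a log2 fold change of 0.35 ± 0.04 (adjusted p = 0.00343). Its call held under every alternative run and without any 1 library. Efna5, one of the ligands of EphA receptors, had 18.1, 17.3 and 17.8 CPM in deletion stem cells and 14.2, 11.8 and 13.2 CPM in control stem cells (0.42 ± 0.08, adjusted p = 0.0295). Ntn1 had 89.7, 91.3 and 89.1 CPM in deletion stem cells and 76.8, 78.8 and 73.8 CPM in control stem cells (0.22 ± 0.04, adjusted p = 0.0493). The groups of all 3 genes did not overlap, but Epha2 was the only 1 of them called without deletion B or C or control B or C. Efna5 was also not called without deletion A, nor Ntn1 without control A or with DESeq2's size factors (adjusted p = 0.0503).

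The fit above did not pair libraries. In a second fit, replicate letters were taken to pair the stem cell libraries, as described with the processing, though the labels do not say so. With the letter as a block the deletion gave 9 guidance genes higher (3.20% of all 16185 genes were) and 1 lower (3.10% of all genes). Beside Epha2, Efna5 and Ntn1 the blocked fit called Robo2 (0.70), Robo4 (0.77), Epha1 (0.26), Sema3e (0.24), Efnb2 (0.20) and Unc5b (0.16) higher and Robo1 lower (-0.28). Without the block Robo2 had 4.29, 4.20 and 4.29 CPM in deletion stem cells and 2.85, 2.05 and 2.82 CPM in control stem cells (0.70 ± 0.15, adjusted p = 0.0593; with the replicate block adjusted p = 0.0305). Robo1 had 42.5, 38.2 and 39.9 CPM in deletion stem cells and 52.2, 46.9 and 45.9 CPM in control stem cells (-0.28 ± 0.06, adjusted p = 0.0580; with the block adjusted p = 0.00624). For both Robo genes the groups did not overlap. In the authors' deposited table, with 62 of the genes, 5 were higher and 1 was lower.

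The effect of the deletion was then compared between the cell types in 1 fit over the 12 libraries. Of 66 guidance genes tested, 9 had a more positive effect in neurons than in stem cells (13.6%, where 5.01% of all 18299 genes did) and 8 a more negative one (12.1%, where 8.50% of all genes did). The largest difference was that of Sema3a, -1.21 ± 0.20 (adjusted p = 0.000927): it was lower in deletion neurons and gave 0.17 ± 0.19 in stem cells. Robo2 differed by -1.10 ± 0.13 (adjusted p = 4.04e-05), lower in deletion neurons while its value in stem cells was 0.70 ± 0.15. Unc5b differed by -1.08 ± 0.10 (adjusted p = 4.46e-06), with -0.90 ± 0.12 in neurons and 0.16 ± 0.04 in stem cells. The count of 8 was 4 without neuron deletion C and 5 without neuron deletion B, neuron control B, stem cell deletion B or stem cell deletion C. Ephb4 (-1.12 ± 0.26), Sema3f (-0.74 ± 0.21) and Sema7a (-0.69 ± 0.20) were the others on this side among the 8 largest.

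The 9 genes on the positive side were 4 plexins and neuropilins (Nrp2, Plxnc1, Plxna2 and Plxna3), 3 transmembrane semaphorins (Sema6b, Sema5b and Sema6c), the secreted Sema3e and Slit2. Sema6b differed by 0.88 ± 0.21 (adjusted p = 0.0116) and Sema5b by 0.76 ± 0.17 (adjusted p = 0.00641), each higher in deletion neurons and below 0 but not called in deletion stem cells. Nrp2 differed by 0.68 ± 0.10 (adjusted p = 0.000228). Nrp2 thus had a log2 fold change of 0.66 ± 0.07 between deletion neurons and deletion stem cells and of -0.02 ± 0.06 between control neurons and control stem cells. Efna5 and Epha2 differed in what they showed: Efna5 was called higher in both cell types, with an interaction of -0.28 ± 0.08, whereas Epha2 was too low in neurons for its deletion effect there to be tested.

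**Figure D5:**
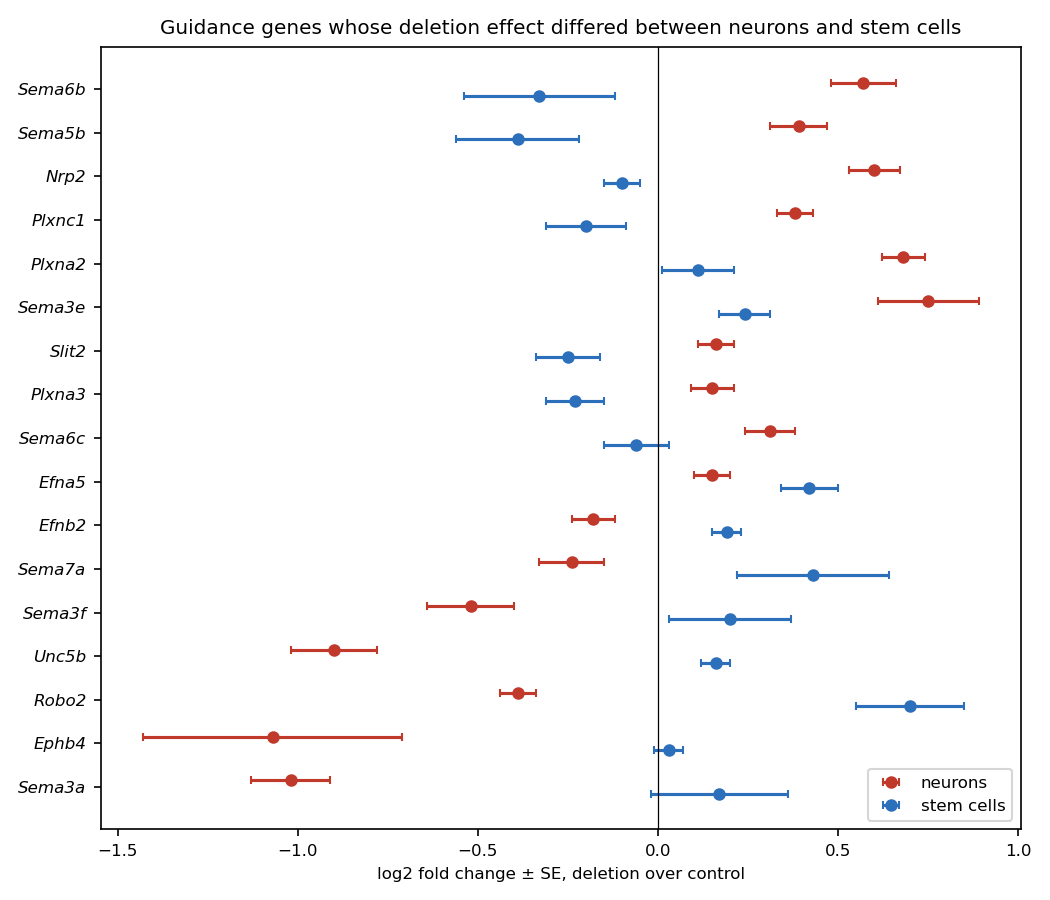
Log2 fold change with its standard error (x axis) of deletion over control cells, in neurons (red) and in stem cells (blue), for the 17 guidance genes whose 2 effects differed in the interaction test. Sema3a (-1.02), Ephb4 (-1.07) and Unc5b (-0.90) lie farthest to the left in neurons and right of 0 in stem cells, and Robo2 lies at -0.39 in neurons and 0.70 in stem cells.

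Genes that work with the guidance receptors were followed as lists chosen with earlier results of these data known. Of 25 tested partner proteins at the cell surface, 8 were higher (32.0%, where 12.4% of all genes were) and 3 lower (12%, where 13.3% of all genes were) in deletion neurons, with a median log2 fold change of 0.02. Kdr, the VEGF receptor that pairs with neuropilins (-1.18 ± 0.37), and Ptk7, a pseudokinase of planar cell polarity (-0.87 ± 0.07), were among the lower genes. Kdr had 5, 8 and 8 counts in deletion neurons and 12, 18 and 14 in control neurons, so its change rests on few counts. Gfra1, the GDNF co-receptor (1.15 ± 0.06), and Draxin, a secreted Dcc ligand (0.69 ± 0.11), were among the higher ones. Of 47 tested intracellular effectors, 8 were higher (17.0%, where 12.4% of all genes were) and 11 lower (23.4%, where 13.3% of all genes were), with a median of 0. The largest changes were in Dock1, the Rac exchange factor downstream of Dcc (-1.50 ± 0.11), the EphA exchange factor Ngef (0.87 ± 0.21), the filopodial motor Myo10, which carries Dcc and neogenin (-0.75 ± 0.09), and the exchange factor Vav3 (-0.55 ± 0.05). In stem cells, 3 of 24 partners (12.5%) and 2 of 47 effectors (4.26%) were higher by edgeR, where 1.37% of all genes were.

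In control neurons against control stem cells, 19 of 26 partners were higher (73.1%) and 5 lower (19.2%), and 38 of 48 effectors were higher (79.2%) and 8 lower (16.7%), where 43.9% of all genes were higher and 45.1% lower. The median log2 fold change was 2.75 for partners and 1.35 for effectors. The ubiquitin ligase Trim9, which binds Dcc, had 2897 counts over the control neuron libraries and 2 over the control stem cell libraries, a ratio of 1560 (95% exact interval 432 to 12900, counting error only). The adhesion molecule L1cam, a partner of neuropilins, rose by 7.76 ± 0.10. Myo10 (-3.69 ± 0.07), Dock1 (-2.32 ± 0.07) and the receptor tyrosine kinase Erbb2, a partner of B-type plexins (-5.23 ± 0.25), ran the other way.

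Whether the guidance transcripts lay in Ago2-bound regions was read from the deposited seCLIP lists of control neurons, which expressed HA-tagged or untagged Ago2. Ago2 is the protein through which microRNAs hold their targets, and the lists give the authors' fold for each region with the replicates not kept apart. A region lay in 23 of the 70 genes, 58 regions in all. Of the 55 genes at 1 TPM or more in control neurons, 20 had a region (36.4%), where 4736 of 11137 genes at that level did (42.5%). Enrichment of at least 2 on the log2 scale over untagged Ago2 with a −log10 p of at least 5 left 2 genes, Efna3 and Epha4, and the same limits over input left 16. Among genes at 1 TPM or more these limits left 1.82% of guidance genes and 1.51% of all genes over untagged Ago2, and 25.5% of guidance genes and 19.7% of all genes over input. The highest log2 folds over untagged Ago2 were 3.61 in Epha4 (3 regions), 3.58 in Sema6b (1 region), 3.45 in Epha2 (2 regions) and 3.31 in Efna3 (1 region). Their levels in control neurons were 0.77 TPM for Epha4, 5.30 TPM for Sema6b, 0.07 TPM for Epha2 and 14.7 TPM for Efna3.

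Regions that the authors matched to a microRNA of the deleted cluster were found in 6 of the 55 genes (10.9%, where 5.30% of genes at that level had one), 8 regions in all. Efna5 and Efnb2 had 2 each, and the other 4 genes 1 each. The mature microRNAs, from RefSeq (GRCm38.p6, chromosome 12), belong to the deleted cluster and are what the matches refer to. They are shown with the seed, bases 2 to 8, in capitals. miR-379-5p and miR-1193-5p share the seed GGUAGAC and are grouped first, and the other 7 seeds differ from one another.
miR-379-5p: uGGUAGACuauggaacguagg
miR-1193-5p: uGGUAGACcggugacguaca
miR-666-3p: gGCUGCAGcgugaucgccugcu
miR-541-5p: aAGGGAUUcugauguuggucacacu
miR-1197-3p: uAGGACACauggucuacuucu
miR-3072-3p: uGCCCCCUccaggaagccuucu
miR-412-3p: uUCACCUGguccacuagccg
miR-376b-3p: aUCAUAGAggaacauccacuu
miR-134-5p: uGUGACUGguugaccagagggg
In the authors' deposited small RNA table, the log2 fold change in deletion neurons was -10.38 for miR-379-5p, -9.40 for miR-376b-3p, -9.35 for miR-134-5p and -8.85 for miR-541-5p. These were the 4 most abundant of those with a value. For miR-412-3p and miR-1193-5p no value was at hand, so neither their level nor their loss is shown.

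The matched regions lay at log2 folds of -0.53 to 1.35 over untagged Ago2. In Efnb2 the regions were chr8:8618092-8618125 (miR-379-5p or miR-1193-5p, log2 fold over untagged Ago2 of 0.27) and chr8:8620099-8620129 (miR-666-3p, -0.06), both on the minus strand of mm10. In Efna5 they were chr17:62605024-62605069 (miR-541-5p, 0.13) and chr17:62605857-62605960 (miR-1197-3p, 1.12), also on the minus strand. Plxna1 had the region with the highest fold, chr6:89316535-89316580 (miR-412-3p, 1.35), followed by those of Sema4c (miR-376b-3p, 0.60), Sema6a (miR-134-5p, 0.38) and Ephb2 (miR-3072-3p, -0.53). None of the 8 passed the stricter limits over untagged Ago2, while 4 passed the same limits over input, both in Efnb2 (log2 folds 4.34 and 3.21) and those of Plxna1 (2.46) and Sema4c (3.09).

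The RNA of the 6 genes did not move 1 way in deletion neurons. Efna5 rose and Efnb2 fell, as given above. Sema6a had 97.8, 101 and 91.6 CPM in deletion neurons and 87.9, 87.6 and 86.9 CPM in control neurons (0.15 ± 0.06, adjusted p = 0.0677), so it did not pass although the groups were apart. Ephb2 (-0.10 ± 0.07), Plxna1 (-0.05 ± 0.06) and Sema4c (-0.04 ± 0.06) did not pass and their groups overlapped. Among genes called in deletion neurons, Sema3a, Ephb1, Epha5, Unc5b and Robo2 had no deposited region in these lists. Other called genes had regions, among them Sema6b (1 region, log2 fold over untagged Ago2 of 3.58) and Plxna2 (1 region, -0.36). Slit1, Sema6c and Sema7a also had regions.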

How the data were processed

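RNA-seq libraries were rRNA-depleted and paired-end, per the labels' protocols. Tools listed in the submitters' processing notes, without roles, are RSEM 1.2.30, SAMtools, DESeq2, STAR 2.4.1d and cutadapt 1.4.2, with the build mm10; strand setting and annotation release were not given in the sources used here, and 29 guidance genes overlap another annotated gene, 6 of them a protein-coding one. The deposited gene files hold, per the file headers, RSEM's expected counts, posterior mean counts and TPM. RSEM's effective lengths came from the same deposited files. The authors' deposited tables give log2 fold changes, and p-values adjusted by the authors, beside a mean normalised signal. Each region of the deposited CLIP lists has a −log10 p and a log2 fold. All 22400 regions recur in both lists (HA over untagged, HA over input), so requiring shared regions to overlap changed nothing.

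Rounded expected counts were compared by the quasi-likelihood test of edgeR 4.0.16 (R 4.3.3) after TMM scaling and filterByExpr (at least 10 counts), adjusting p over all genes tested by Benjamini-Hochberg with a threshold of 0.05; the interaction used all 12 libraries, the others their own 6. SE is the size of the log2 fold change over the root of its F value. CPM use TMM library sizes over the 12 libraries. The test was checked on simulated counts. Depth was 14904722 to 21499071 counts; genes with few counts carry wide errors, and intervals cover counting error only.

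Members and lists were chosen with earlier results of these data known. Per-library values are given for up to 3 genes of each class with the largest called change in deletion neurons, 2 in stem cells, 2 each way between cell types, 8 in the interaction and those with most matched Ago2 regions; other genes were named after their values were seen, as were the class sums in CPM. Ntn3 was not analysed here. The antisense entries Plxna4os1, Plxna4os2 and Plxna4os3 and Unc5cl were left out. For 8 members without a strand in the reference table, Ago2 regions on either strand were counted. RefSeq symbols and sequences are of GRCm38.p6, the assembly mm10 denotes. In the deletion contrast in stem cells, same-lettered deviations correlated at 0.384, 0.104 and 0.161 across genes (limit 0.1). Elsewhere they correlated at -0.195 to 0.032, and letters were not taken to pair libraries. The stem cell contrast was fitted without pairing, which gave the first counts reported, and again with the letter as a block. In stem cells deletion C also correlated with control B, at 0.146, above the 0.104 of letter B, so the pairing is an assumption. Alternatives were DESeq2 1.42.0 size factors or Wald test, no filter, all 12 libraries in 1 fit, the block, each library left out, posterior mean TPM, stricter Ago2 limits and, chosen after seeing the data, posterior mean counts.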

Additional observations from a re-analysis of the deposited data

Results flagged for a closer look

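For 17 guidance genes the effect of the deletion in neurons minus that in stem cells differed from 0 in the interaction test over all 12 RNA libraries (edgeR, adjusted p under 0.05), which is what singled them out. More negative in neurons were Sema3a (-1.21 on the log2 scale), Ephb4 (-1.12), Robo2 (-1.10), Unc5b (-1.08), Sema3f (-0.74), Sema7a (-0.69), Efnb2 (-0.40) and Efna5 (-0.28). More positive in neurons were Sema6b (0.88), Sema5b (0.76), Nrp2 (0.68), Plxnc1 (0.56), Plxna2 (0.55), Sema3e (0.50), Slit2 (0.40), Plxna3 (0.36) and Sema6c (0.35). Of these, 10 were called under every alternative and without any 1 library. The exceptions were Ephb4, Plxna3, Sema3f, Sema7a, Sema6c, Efna5 and Sema3e.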

How the results depend on the processing

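Across the alternatives that kept all libraries, the counts of guidance genes called higher in deletion neurons (18 to 21), changed between cell types and called in the interaction stayed within 1.5 times the values reported. The exceptions were these. Guidance genes lower in deletion neurons were 5 with DESeq2's Wald test (8 reported). In stem cells, guidance genes higher in deletion cells (3 reported) were 6 with no filter, 9 with the replicate block and 5 with all 12 libraries in 1 fit, and 1 gene was lower with each of these and with the Wald test (0 reported). Over all genes in stem cells, 518 were higher with the replicate block (221 reported), and 135 were lower with the Wald test, 187 with no filter and 501 with the block (88 reported). The cause was not tested. Posterior mean TPM gave summed levels of 7.35 for Slits in deletion stem cells (5.04 reported), 8.59 in control stem cells (6.15), 14.4 for netrins in control stem cells (13.5), and 80.7 and 79.0 for semaphorins in deletion and control stem cells (72.2 and 70.8). The stricter Ago2 limits over untagged Ago2 left 2 genes of 23.

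Without 1 library, the guidance genes called were 16 to 20 higher and 4 to 9 lower in deletion neurons, 1 to 2 higher and 0 to 1 lower in deletion stem cells, 46 to 48 higher and 15 to 16 lower in control neurons against stem cells, 46 to 48 higher and 15 to 17 lower in the deletion cells, and 6 to 9 higher and 4 to 8 lower in the interaction. All genes called in stem cells were 69 to 211 higher and 18 to 104 lower, and in the interaction 647 to 860 higher and 907 to 1566 lower. A sign turned in 2 genes that were not called: without 1 library Nrp2 in control neurons against stem cells ranged from -0.07 to 0.04 (-0.02 reported; 0.01 without control neuron A and 0.04 without control neuron C), and Sema4c in deletion neurons from -0.07 to 0.01 (-0.04 reported). The block changed no other named call than those given here and with the stem cell results, apart from Sema4d, Ephb4, Slit2, Sema7a and Efna5 (lost) and Slit3 (gained, adjusted p = 0.0412) in neurons and Sema6c (lost) in the interaction, where letters were not taken to pair the libraries. Precision is limited by 3 libraries in each group, and by counts near 0 for 4 members tested nowhere (Sema3g, Plxnb3, Robo3 and Ntn5).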
